A study of Mus musculus with 5 samples.

Results

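The alpha-class glutathione transferases were followed in mouse hearts in which Immt had been deleted by an inducible recombinase. Immt encodes a core subunit of the complex that shapes mitochondrial cristae. The class was taken as the entries named Gsta1, Gsta2, Gsta13, Gsta3 and Gsta4, which are 5 of the 15116 genes in the table, and it was selected on its measured values, for the steep rise of Gsta1, Gsta2 and Gsta13. The levels of these 5 genes in this comparison are therefore given as a description, with no test. A sixth entry of the class, Gsta5, is described beside them because its transcript is close in sequence to those of Gsta1, Gsta13 and Gsta2.

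Glutathione transferases join the tripeptide glutathione to reactive compounds, which makes these compounds more soluble and easier to export. The alpha class is best known from liver, and its members also act on products of lipid peroxidation. Gsta4 is known for its activity on 4-hydroxynonenal, an aldehyde formed when membrane lipids are oxidized, and mouse Gsta3 is known for its high activity on aflatoxin epoxide. Gsta1 and Gsta2 are known in mouse liver as genes that are induced by antioxidants and foreign compounds.

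The knockout group was 2 libraries from hearts of Immtfl/fl-Myh6-MCM mice, in which both Immt alleles carry loxP sites and the MerCreMer recombinase, driven by the cardiomyocyte promoter Myh6, acts once tamoxifen is given. The control group was 3 libraries from hearts of Immt+/+-Myh6-Cre mice, which carry wild-type Immt and a Cre recombinase that needs no tamoxifen, driven by the same promoter. All 5 samples are labelled as treated with tamoxifen, given at 6 weeks of age, and the knockout hearts were taken 10 weeks later, whereas the controls are described as age-matched. The groups differ in the recombinase as well as in Immt, and these cannot be told apart.

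The libraries were 3′ tags, with 1 read end near the poly-A tail of each RNA, so that a level in CPM, which is read counts scaled by library size, is not divided by transcript length. The table holds 1 mean and 1 standard deviation (SD) per group, and the reads of each library were worked back from them where only 1 set of reads gave both values. The libraries are called A, B and C in the control and D and E in the knockout, since nothing ties them to the numbers in the labels. Their effective sizes were 12.1 to 13.6 M reads in the control and 14.1 to 15.2 M reads in the knockout, which made 1 read worth 0.0658 to 0.0825 CPM. In the control, 71.2% of the genes between 0.5 and 6 CPM came out as whole reads, and in the knockout 75.5%. Immt itself stood at 254 CPM ± 7.76 (SD, n = 3) in control hearts and at 17.9 CPM ± 2.72 (SD, n = 2) in knockout hearts, which is 7.04% of the control level (log2 difference of −3.79, limma adjusted p = 3.3e-07). Hearts were measured in bulk, so more cells of a type and more RNA per cell cannot be told apart.

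Gsta1, Gsta13, Gsta5 and Gsta2 lie in a cluster on mouse chromosome 9 together with Gsta4, whereas Gsta3 lies on chromosome 1. In GENCODE M21, where Gsta13 and Gsta5 are still called Gm3776 and Gm10639, the transcripts of Gsta1 and Gsta13 had the same base at 870 of 874 aligned positions (99.5%). Gsta1 shared 97.2% of aligned bases with Gsta2 and 96.7% with Gsta5, and Gsta5 shared 98.3% with Gsta2. Gsta3 and Gsta4 shared only 73.3% and 67.1% with Gsta1. The stretch shown here is coding sequence of the last exon (exon 8 in Gsta5, exon 7 in the others) and holds the only base inside the last 300 bases at which Gsta1 and Gsta13 differ when aligned. It is shown because reads of a 3′ tag library come from this end of the RNA. Capitals mark, in Gsta1, each base that differs in at least 1 of the other 3 genes, and in those genes each base that differs from Gsta1.
Gsta1, chr9:78242467-78242526 (GRCm38, plus strand): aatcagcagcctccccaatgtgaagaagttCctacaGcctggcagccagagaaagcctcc
Gsta13, chr9:78268950-78269009 (GRCm38, plus strand): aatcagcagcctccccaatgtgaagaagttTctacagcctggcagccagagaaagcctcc
Gsta2, chr9:78331176-78331235 (GRCm38, minus strand): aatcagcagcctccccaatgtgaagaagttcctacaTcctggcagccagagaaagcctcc
Gsta5, chr9:78305309-78305368 (GRCm38, plus strand): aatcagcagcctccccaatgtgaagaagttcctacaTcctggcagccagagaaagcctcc

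Over these 60 bases Gsta2 and Gsta5 read the same, and each of the other 3 genes differed from Gsta1 at 1 base. The limit that this sets on a short read was counted with windows along the last 300 bases of each transcript. Of the windows of 50 bases, 17.9% in Gsta1 and 19.9% in Gsta13 were found in no other mouse gene of the annotation. In Gsta2 this share was 59.4%, and in Gsta5 it was 69.3%. With windows of 100 bases the shares were 50.2%, 49.8%, 86.6% and 86.6% in the same order. Every window of Gsta3 and Gsta4 was found in that gene alone, so the tags of these 2 genes can be assigned and those of the 4 like genes often cannot. The coordinates are those of GRCm38, whereas the submitters' processing notes name GRCm39 for the reads.

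**Figure D1:**
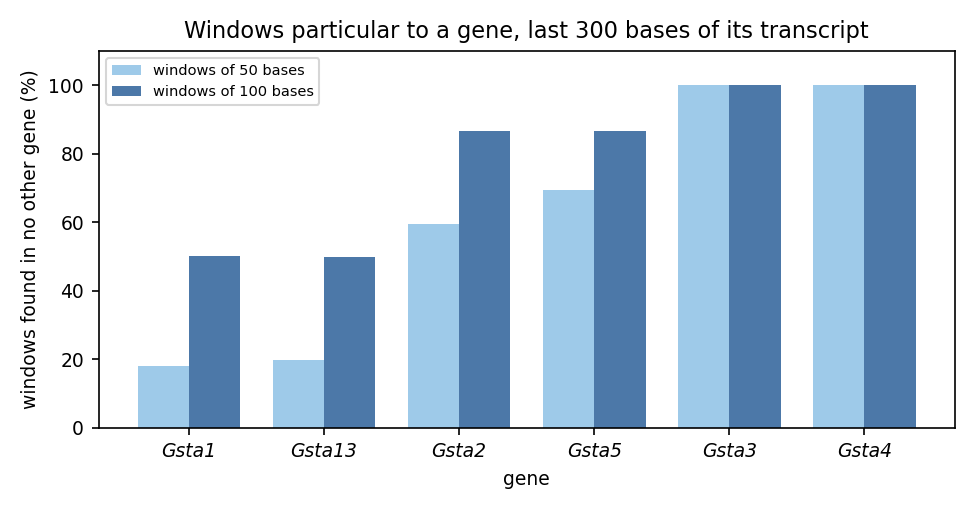
Share of windows (%, vertical axis) along the last 300 bases of each gene's transcript that occur in no other gene of GENCODE M21, for windows of 50 bases (light bars) and 100 bases (dark bars). Gsta1 and Gsta13 have the fewest such windows (17.9% and 19.9% at 50 bases), and Gsta3 and Gsta4 have 100%.

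The reads carry the same limit. The worked-back values of Gsta1, Gsta13, Gsta2 and Gsta5 were fractions of a read in steps of 1/12, as arise when a read that matches several genes is divided among them, whereas those of Gsta3 and Gsta4 were whole reads in all 5 libraries. The 4 genes added together came to 31, 25 and 50.99 reads in control libraries A, B and C, which are whole reads within the rounding of the fractions. In the knockout the sums were 2688.83 and 1713.33 reads. These are not whole, so reads divided with an entry beyond the 4 genes are possible, and some windows of Gsta2 and Gsta5 also occur in other annotated genes. The sum does not depend on how a read was divided among the 4 genes, and it is given first.

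Together the 4 like genes stood at 2.27, 1.84 and 4.21 CPM in control libraries A, B and C and at 177 and 122 CPM in knockout libraries D and E. No control library came near a knockout library, and the lowest knockout value was 28.9 times the highest control value. The mean rose from 2.77 CPM ± 1.26 (SD, n = 3) to 149 CPM ± 39.0 (SD, n = 2), a ratio of 53.9 and a log2 ratio of 5.75. The exact 95% Poisson intervals ran from 1.19 to 5.53 CPM over the control libraries and from 116 to 184 CPM over the knockout libraries. Gsta1, Gsta2 and Gsta13 were chosen for this rise, so the intervals are a description and not a test of it. Intervals here and elsewhere cover counting error only. For the 4 like genes taken singly, they leave out the error from dividing shared reads. The intervals of knockout libraries D and E did not overlap, with D 1.45 times E, and control library C was 2.05 times the mean of A and B.

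**Figure D2:**
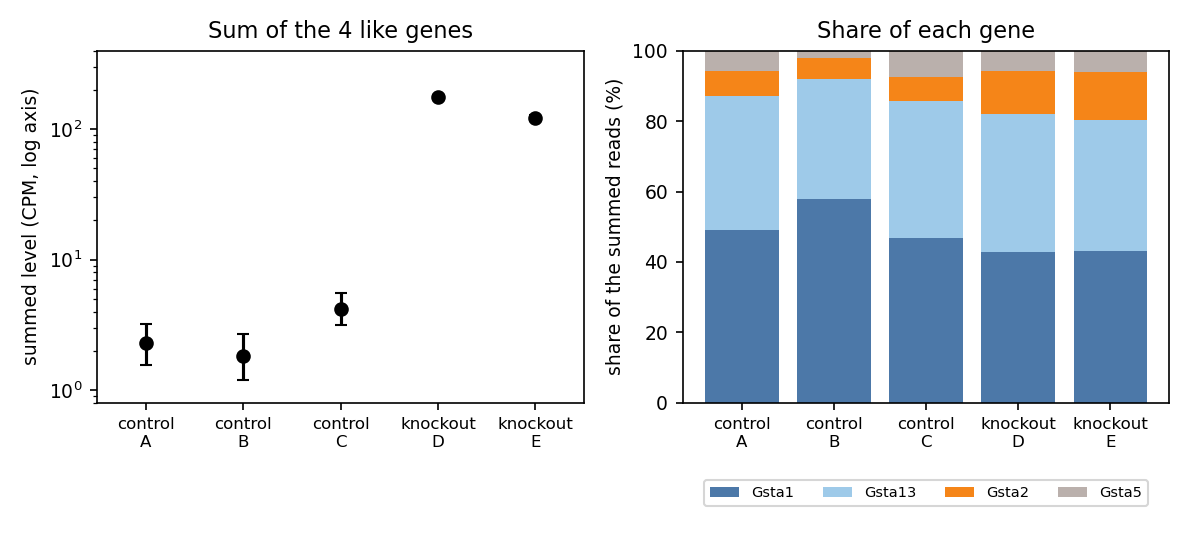
Left, summed level of Gsta1, Gsta13, Gsta2 and Gsta5 in each library (CPM, log axis), with exact 95% Poisson intervals as bars. The 3 control libraries sit between 1.84 and 4.21 CPM and the 2 knockout libraries at 122 and 177 CPM. Right, share of each gene in that sum (%), where Gsta1 holds the largest share in every library and Gsta2 holds 6% to 7.26% in the control and 12.2% to 13.7% in the knockout.

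Gsta1 (ENSMUSG00000074183) stood at 1.12, 1.06 and 1.97 CPM in control libraries A, B and C and at 75.8 and 52.3 CPM in knockout libraries D and E. These correspond to 15.25, 14.5 and 23.83 reads against 1151.92 and 736.17 reads, and the groups were far apart. The group means were 1.38 CPM ± 0.51 (SD, n = 3) and 64.0 CPM ± 16.6 (SD, n = 2), a ratio of 46.3. Among the 8945 genes with at least 5 CPM in the knockout and some reads in the control, this ratio of means was the eighth highest, at rank 8.

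Gsta13 (ENSMUSG00000111709), the gene closest to Gsta1 in sequence, stood at 0.862, 0.624 and 1.64 CPM in the control libraries and at 69.6 and 45.4 CPM in the knockout libraries. Its means were 1.041 CPM ± 0.53 (SD, n = 3) and 57.5 CPM ± 17.0 (SD, n = 2), a ratio of 55.2 and rank 5 among the same genes. Library C was the highest of the control and library D the higher of the knockout, as for Gsta1. Most of their 3′ windows of 50 bases were shared, whereas 50.2% and 49.8% of those of 100 bases were not. The values of Gsta1 and Gsta13 are therefore not independent measurements of 2 genes.

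Gsta2 (ENSMUSG00000057933), whose transcript end is easier to tell apart, had 2.25, 1.5 and 3.5 reads in the control libraries, which is 0.165, 0.110 and 0.289 CPM. In the knockout it had 328.08 and 235.5 reads, or 21.6 and 16.7 CPM. Its means of 0.188 CPM ± 0.092 (SD, n = 3) and 19.2 CPM ± 3.42 (SD, n = 2) gave a ratio of 102 and rank 4, the steepest among the members. This ratio rests on 7.25 reads in the whole control group. With reads pooled over libraries and rounded, the ratio was 108 with an exact 95% counting interval of 52.3 to 271, whereas that of Gsta1 was 47.0 with an interval of 35.9 to 62.8 and that of Gsta13 57.1 with an interval of 41.7 to 80.2. The intervals of the 3 genes overlap, so their order by ratio was not settled at this depth.

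Gsta5 (ENSMUSG00000074179) had 1.75, 0.5 and 3.83 reads in the control and 151.5 and 102.33 reads in the knockout. Its level went from 0.160 CPM ± 0.142 (SD, n = 3) to 8.62 CPM ± 1.90 (SD, n = 2), a ratio of 53.7. By its mean it was the lowest of the 4 like genes in both groups.

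The share of each gene in the sum of the 4 was compared with its counting interval. Gsta1 held 50.1% of the control reads (exact 95% binomial interval 40.6% to 60.3%) and 42.9% of the knockout reads (41.4% to 44.4%). Gsta13 held 37.5% and 38.5%, and Gsta5 held 5.68% and 5.77%. Gsta2 held 6.78% of the control reads (2.67% to 13.02%) and 12.8% of the knockout reads (11.8% to 13.8%), and its share in both knockout libraries lay above that in all 3 control libraries. The share of Gsta1 in both knockout libraries (42.8% and 43.0%) lay below that in all 3 control libraries (46.7% to 58.0%). With 107 control reads in all, the knockout share lay inside the control interval for each of the 4 genes.

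**Figure D3:**
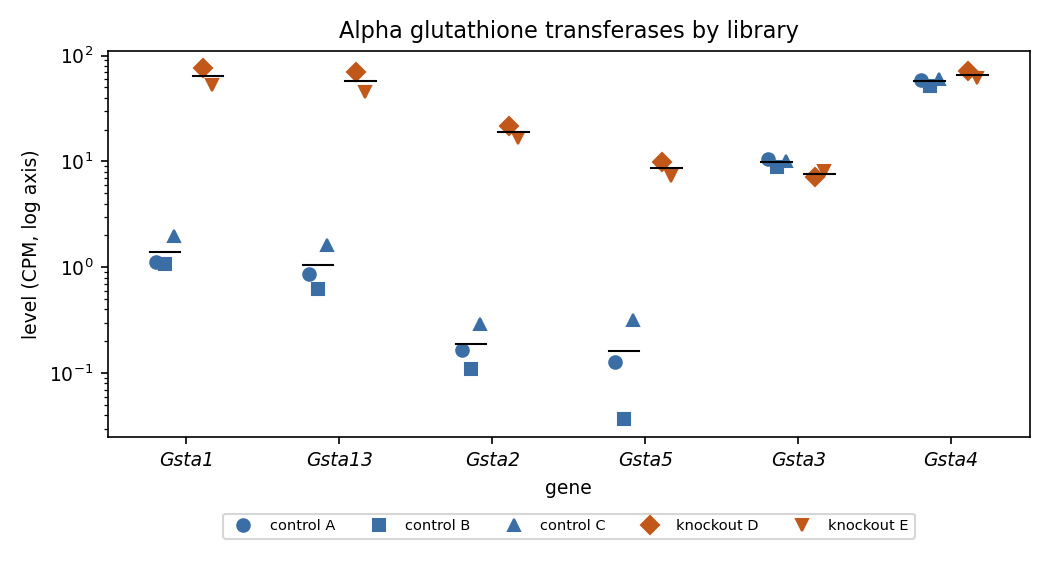
Level of each alpha-class gene in each of the 5 libraries (CPM, log axis), with control libraries A, B and C in blue, knockout libraries D and E in orange and group means as black lines. Gsta1, Gsta13, Gsta2 and Gsta5 lie far higher in the knockout than in the control, Gsta3 is slightly lower (7.17 and 8.03 against 8.81 to 10.6 CPM) and Gsta4 slightly higher (61.0 and 71.4 against 51.9 to 60.7 CPM).

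Gsta4 (ENSMUSG00000032348), the hydroxynonenal transferase, was the most abundant alpha-class gene of the control hearts, at 58.3, 51.9 and 60.7 CPM. In the knockout it stood at 71.4 and 61.0 CPM. The groups did not overlap, but library E exceeded control library C by less than 1%, with a ratio of 1.005. The means of 57.0 CPM ± 4.54 (SD, n = 3) and 66.2 CPM ± 7.39 (SD, n = 2) gave a ratio of 1.16.

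Gsta3 (ENSMUSG00000025934), alone on chromosome 1, went the other way. It had 144, 120 and 122 whole reads in the control libraries (10.6, 8.81 and 10.1 CPM) and 109 and 113 in the knockout libraries (7.17 and 8.03 CPM). The means of 9.81 CPM ± 0.90 (SD, n = 3) and 7.60 CPM ± 0.61 (SD, n = 2) gave a ratio of 0.775. Here too the groups did not overlap. Such separation was frequent: among the 10708 genes with reads worked back in all 5 libraries, both knockout libraries lay above all 3 control libraries in 21.9% and below them in 27.2%, so the separation of Gsta3 and Gsta4 is not particular to them.

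The 6 alpha-class genes added together stood at 71.1, 62.5 and 74.9 CPM in the control and at 255 and 191 CPM in the knockout. In the control Gsta4 supplied 82.0% ± 1.02 (SD, n = 3) of these tags and the 4 like genes 3.92% ± 1.48. In the knockout Gsta4 supplied 30.0% ± 2.83 (SD, n = 2) and the 4 like genes 66.5% ± 3.82. The order of levels in the control was Gsta4, Gsta3, Gsta1, Gsta13, Gsta2, and only the step from Gsta1 to Gsta13 had overlapping libraries. In the knockout Gsta4, Gsta1 and Gsta13 stood at 66.2, 64.0 and 57.5 CPM with overlapping libraries, above Gsta2 and then Gsta3. Read within each library, Gsta1 stood above Gsta13 throughout, whereas Gsta4 stood below Gsta1 in library D and above it in library E.

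The genes whose pair of group means lay nearest to a member were found by distance on the log2(mean CPM + 0.5) scale, over the 2 group means. For Gsta1 these were Gsta13 at a distance of 0.33, Asns (asparagine synthetase) at 0.60, Trib3 (a pseudokinase of the stress response) at 0.71, and the heat shock genes Hspa1b at 1.01 and Hspa1a at 1.23. Asns had group means of 2.34 and 67.7 CPM, and Trib3 of 1.91 and 41.6 CPM. For Gsta2 they were Vmn2r3 (a vomeronasal receptor gene), Phgdh (the first enzyme of serine synthesis), Ostn (a secreted muscle and bone peptide), Fgf21 (a secreted metabolic hormone) and Gsta5, at 0.73 to 1.11. Phgdh had means of 0.601 and 15.1 CPM, and Fgf21 of 0.232 and 38.05 CPM.

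**Figure D4:**
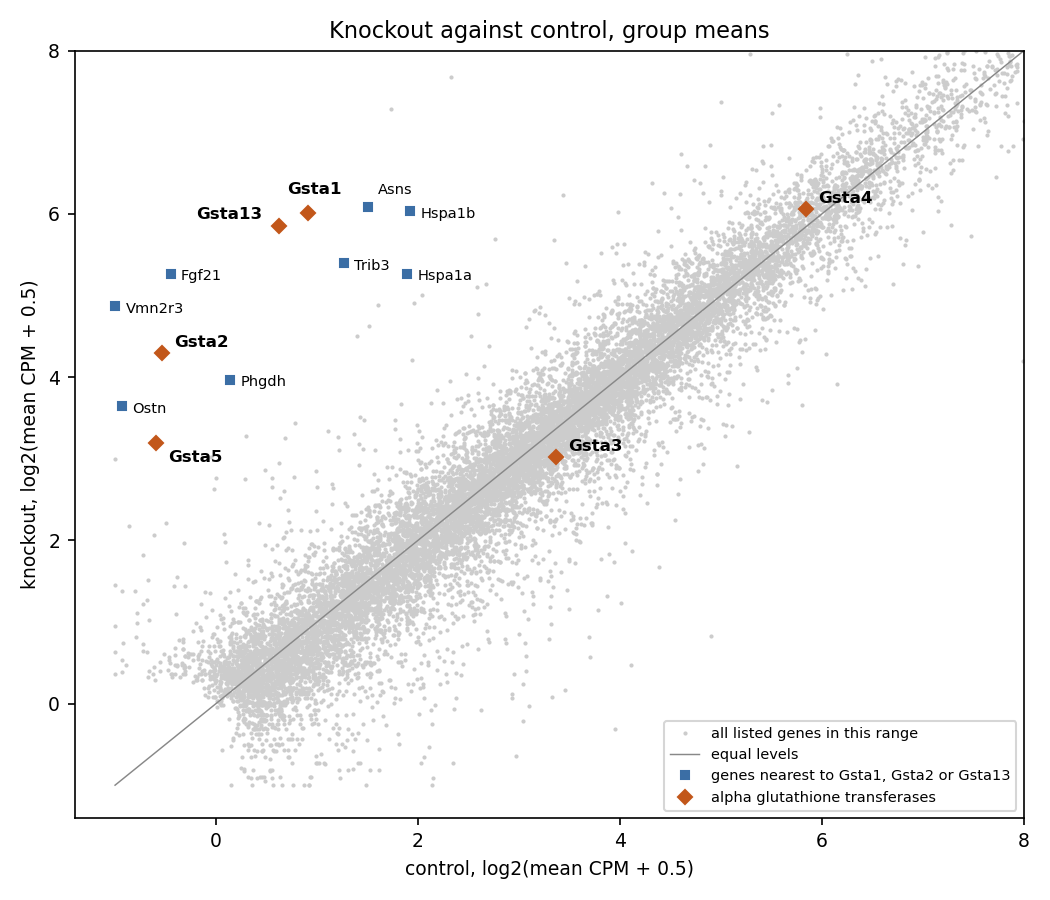
Group means of all listed genes in the range shown, as log2(mean CPM + 0.5) in the control (horizontal) and the knockout (vertical), with a line of equal levels. Gsta1, Gsta13, Gsta2 and Gsta5 (orange) lie far above the line among few other genes, and Gsta3 and Gsta4 lie close to it. Blue squares are the genes nearest to Gsta1, Gsta2 or Gsta13.

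Gsta13 had Gsta1, Trib3, Asns, Fgf21 and Hspa1b as its nearest genes, at 0.33 to 1.31. Gsta3 and Gsta4 lay in the dense part of the table, with their nearest genes at no more than 0.032 and 0.031. Those of Gsta3 included Rbms3, Stk38l, Nudt22 and Zfp955b, and those of Gsta4 were Serpinb6a, Cd47, Cdc37, Celf2 and Txndc17. With 2 group means behind each gene, such likeness is common for a small change and rare for a large one.

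Of the other genes within 200 kb of a member in RefSeq, 9 had values. On chromosome 9 these were 7, of which Eef1a1, the translation elongation factor beyond Gsta2, rose from 598 CPM ± 14.1 (SD, n = 3) to 949 CPM ± 83.3 (SD, n = 2), a log2 difference of 0.67 (limma adjusted p = 0.00021). The other 6 did not pass the test: Fbxo9, Cilk1 and the noncoding C920006O11Rik on the Gsta4 side, and Cgas, Mto1 and Slc17a5 beyond Gsta2, with log2 differences of −0.32 to 0.21. Cgas, the cytosolic DNA sensor, stood at 1.23 CPM ± 0.40 (SD, n = 3) and 0.955 CPM ± 0.044 (SD, n = 2). On chromosome 1, Tram2 and Tmem14a beside Gsta3 both had a log2 difference of −0.25 and did not pass. A gene was called at a limma adjusted p below 0.05, which held for 2014 of all 15116 genes in the direction of the knockout (13.3%) and for 1944 in the other (12.9%). Columns scaled to equal totals gave 3067 and 1419 such genes, with the median log2 difference of all genes shifted by 0.11.

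Promoter windows of the 250 bases before the start site were taken from RefSeq (GRCm38.p6) for Gsta1, Gsta13, Gsta5, Gsta2 and Gsta3. Gsta4 is named only. The windows of Gsta1 and Gsta13 shared 99.6% of aligned bases, those of Gsta1 and Gsta5 98.7%, and those of Gsta1 and Gsta2 77.0%. The windows of Gsta1 and Gsta2 are shown because these genes rose together and their upstream sequence differs more than their transcripts. Capitals mark the longest run that is identical in Gsta1, Gsta13 and Gsta2, which is 29 bases long and begins 118, 105 and 121 bases before the start.
Gsta1, chr9:78230419-78230668 (GRCm38.p6, plus strand): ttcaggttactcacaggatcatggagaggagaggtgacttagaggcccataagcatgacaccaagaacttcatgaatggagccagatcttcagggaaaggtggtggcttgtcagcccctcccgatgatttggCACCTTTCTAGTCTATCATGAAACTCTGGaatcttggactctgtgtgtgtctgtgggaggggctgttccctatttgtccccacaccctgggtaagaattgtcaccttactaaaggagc
Gsta2, chr9:78347146-78347395 (GRCm38.p6, minus strand): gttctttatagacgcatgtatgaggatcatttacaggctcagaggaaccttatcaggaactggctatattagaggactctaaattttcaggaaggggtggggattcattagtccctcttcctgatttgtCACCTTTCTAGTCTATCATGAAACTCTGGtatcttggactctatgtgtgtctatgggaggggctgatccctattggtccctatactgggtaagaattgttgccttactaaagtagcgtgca

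The 3 motifs searched on both strands were the antioxidant response element core TGACNNNGC, the ATF4 and C/EBP composite element TGATGNAA and the AP-1 element TGANTCA. They were found in 10.2%, 3.45% and 6.75% of the 32851 RefSeq windows of the same length. None of the 3 was found in the windows of Gsta1, Gsta13, Gsta5 or Gsta2. The antioxidant response element core was found once, in Gsta3, and the match with its position is TGACATTGC, beginning 121 bases before the start. A match is a description of letters, and a window without one says only that these letters are not in it. Sequence outside these windows, such as elements further upstream, was not searched.

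The other glutathione transferases were called in both directions. Of 22 listed genes, which cover the mu, pi, theta, omega, zeta, kappa and microsomal classes, Hpgds of the sigma class and the related Gstcd, 3 rose, 5 fell and 14 did not pass the test, against 13.3% and 12.9% of all genes. The share that rose was near that over all genes. The median log2 difference was −0.16, against −0.02 over all genes. Scaling to column totals made it 5 that rose and 3 that fell.

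Among those that rose, Gsto1, an omega-class enzyme that also reduces dehydroascorbate, went from 129 CPM ± 9.23 (SD, n = 3) to 243 CPM ± 15.5 (SD, n = 2), a log2 difference of 0.91 (limma adjusted p = 0.00011). Gstm1, a mu-class enzyme, went from 93.5 to 134 CPM (log2 difference of 0.52, limma adjusted p = 0.0024), and Mgst3, a microsomal enzyme, from 663 to 873 CPM (0.40, limma adjusted p = 0.0045).

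Among those that fell, Gstt1, a theta-class enzyme, stood at 19.1, 17.2 and 13.9 CPM in the control libraries and at 6.38 and 7.96 CPM in the knockout libraries (log2 difference of −1.17, limma adjusted p = 0.00084). Gstk1, the kappa-class enzyme of mitochondria and peroxisomes, stood at 54.0, 46.2 and 41.1 CPM and at 31.8 and 28.3 CPM (−0.64, limma adjusted p = 0.0050). Neither gene had overlapping groups. Among genes with reads worked back in all libraries, 27.2% had both knockout libraries below every control library. Gstm6 (log2 difference of −0.76) and Mgst1 (−0.29) also passed, with limma adjusted p of 0.018 and 0.021, and Mgst1 lost its call when columns were scaled to equal totals. Gstp1 (93.1 and 78.9 CPM) and Gstm2 (70.7 and 71.2 CPM), the most abundant of those that did not pass, are listed by their values. With the knockout value nearer to the control in place of the mean, Gsto1 and Gstt1 kept their calls and the other 6 genes lost them. Mu and pi genes also have close copies, so their own tags may be shared in the same way.

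The enzymes and carriers of glutathione synthesis and turnover were called in both directions. Of 29 genes, among them the carriers Slc7a11, Slc3a2, Slc25a39 and Slc25a40, 12 rose, 5 fell and 12 did not pass the test, against 13.3% and 12.9% of all genes, so that the falls were near the share over all genes. The list had a median log2 difference of 0.10 against −0.02 over all genes. Chac1, which degrades glutathione, stood at 4.69, 4.26 and 4.29 CPM in the control libraries and at 68.9 and 55.7 CPM in the knockout libraries (log2 difference of 3.68, limma adjusted p = 1.3e-06). Slc7a11, the cystine importer, had 1, 1 and 2 reads in the control and 50 and 39 in the knockout (log2 difference of 2.55, limma adjusted p = 7.2e-05). Cth, which makes cysteine by transsulfuration, went from 1.81 to 9.12 CPM (2.06, limma adjusted p = 6.5e-05), and Slc25a39, the carrier of glutathione into mitochondria, from 115 to 279 CPM (1.27, limma adjusted p = 1.1e-05).

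The 2 steps of glutathione synthesis, chosen after their values were seen, differed in size. Gclc and Gclm, the subunits of the first enzyme, had log2 differences of 0.17 (limma adjusted p = 0.52, not called) and 0.48 (limma adjusted p = 0.010), and Gss, the second enzyme, had 1.43 (limma adjusted p = 0.00021). The glutathione peroxidases were called in both directions. Gpx1 (142 to 65.1 CPM) and Gpx3 (229 to 108 CPM) fell by more than 1 on the log2 scale, with limma adjusted p of 1.6e-05 and 2.5e-05. Gpx4 (396 to 521 CPM) and Gpx8 (16.5 to 25.8 CPM) rose. Their log2 differences were 0.40 and 0.63 (limma adjusted p = 0.0019 and 0.0023). Gpx4, Gpx7 and Gpx8 were named after their values were seen, and Gpx7 did not pass. Slc25a40, the paralog of Slc25a39, and Ggt5, a gamma-glutamyl cleaving enzyme, fell by 0.68 and 0.59 on the log2 scale (limma adjusted p = 0.021 and 0.027), and Ggt5 lost its call with columns scaled to equal totals. Gclm, Gpx8, Slc25a40 and Ggt5 lost theirs with the nearer knockout value. Glrx5 (124 and 110 CPM) and Nnt did not pass.

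NRF2 is the factor known to bind antioxidant response elements. Of 30 genes on a list of its targets other than Gsta1, Gsta2, Gsta3 and Gsta4, 16 rose and 0 fell by the limma test (1 fell at an unadjusted p below 0.05), against 13.3% and 12.9% of all genes, and 8 rose with the knockout value nearer to the control. Their median log2 difference was 0.45, against −0.02 over all genes. The list was assembled with earlier results of these data known. It shares genes with other lists, so their counts are not separate. Of the 16, Gclm and Slc7a11 were also counted for glutathione synthesis and turnover, Gstm1 among the other transferases and Abcc4 for aldehyde removal. Nqo1, the quinone reductase, stood at 43.3, 42.8 and 55.7 CPM in the control libraries and had a mean of 161 CPM ± 18.9 (SD, n = 2) in the knockout (log2 difference of 1.76, limma adjusted p = 4.6e-05). Prdx6, a peroxidase that uses glutathione, went from 171 to 267 CPM (0.64, limma adjusted p = 0.00019), and Cat, catalase, from 180 to 312 CPM (0.79, limma adjusted p = 0.00021). Fth1 (2463 and 2570 CPM), the ferritin heavy chain, did not pass, nor did Gstp1. The 4 alpha-class genes on the same list, chosen on these values, had log2 differences of 5.10 (Gsta1), 4.84 (Gsta2), 0.22 (Gsta4) and −0.35 (Gsta3), and the other 30 ranged from −0.26 to 2.55. Of 20 regulators of redox and foreign-compound responses 7 rose and 0 fell by the limma test (1 fell at an unadjusted p below 0.05), against the same 13.3% and 12.9%. The median log2 difference of these 20 was −0.007, near the −0.02 over all genes. Esr1 was one of the 7, at 0.733, 0.807 and 1.07 CPM in the control libraries and 458 CPM ± 27.4 (SD, n = 2) in the knockout (log2 difference of 8.39, limma adjusted p = 1.4e-08), and the MerCreMer fusion of the knockout mice itself contains estrogen receptor sequence. Atf4 and Ddit3, factors of the integrated stress response, rose by 2.67 and 1.93 on the log2 scale (limma adjusted p = 1.6e-06 and 2.4e-05), and Sqstm1, the autophagy receptor that binds KEAP1, by 1.25 (limma adjusted p = 0.00021). Nfe2l2, the gene for NRF2 itself, stood at 37.8, 44.5 and 53.6 CPM in the control and 47.0 and 38.3 CPM in the knockout and did not pass, nor did Cebpb (106 and 139 CPM).

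**Figure D5:**
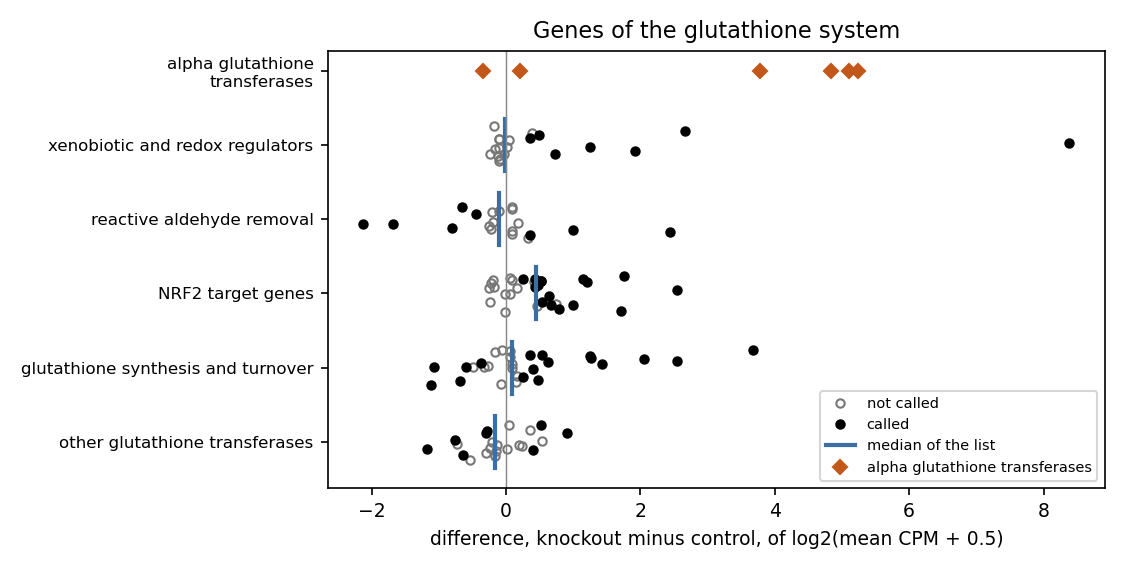
Difference of log2(mean CPM + 0.5), knockout minus control, for the genes of 5 lists (filled circles passed the limma test, open circles did not, blue lines are list medians) and for the 6 alpha-class genes (orange, not tested). Gsta1, Gsta13, Gsta2 and Gsta5 lie between 3.79 and 5.23, above all but 1 gene of the lists, Esr1, and Gsta3 and Gsta4 lie near 0.

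Other genes for the removal of reactive aldehydes, the substrates of Gsta4, were called in both directions. Of 19 genes 3 rose, 5 fell and 11 did not pass the test, against 13.3% and 12.9% of all genes, so the share that rose was near that over all genes. Their median log2 difference was −0.11, which became 0.02 with columns scaled to equal totals. Akr1b7, an aldose reductase-like enzyme, had no reads in any control library and 31 and 34 reads in the knockout libraries (limma adjusted p = 9.0e-05). Abcc4, an exporter of conjugates, and Akr1a1, an aldehyde reductase, had log2 differences of 1.00 and 0.36 (limma adjusted p = 0.0044 and 0.0086). Ptgr1, a reductase of unsaturated carbonyls, fell from 10.0, 10.9 and 7.26 CPM in the control libraries to 1.71 and 1.85 CPM in the knockout libraries (log2 difference of −2.12, limma adjusted p = 9.6e-05). Akr1b8, Akr1b10 and Aldh9a1 fell by 1.68, 0.65 and 0.80 on the log2 scale, with limma adjusted p of 0.00047, 0.0032 and 0.0086. With the nearer knockout value Akr1b7, Ptgr1 and Akr1b8 kept their calls and the other 5 genes lost them. Adh5, an alcohol dehydrogenase (48.1 CPM in control, 51.1 CPM in knockout hearts), did not pass.

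Since alpha-class transferases are abundant in other tissues, markers of those tissues were read in the same libraries. The 10 hepatocyte markers all had values, with sums of 554 CPM (control) and 529 CPM (knockout). By limma 0 were called in either direction (0 also at an unadjusted p below 0.05), against 13.3% higher and 12.9% lower over all genes. Alb and Apoa2 were the highest, at 222 and 211 CPM and at 71.0 and 68.9 CPM. In single libraries Apoa1 stood at 55.1, 58.0 and 55.3 CPM in the control and at 48.2 and 54.4 CPM in the knockout. Each hepatocyte marker with worked-back knockout reads was higher in library E than in library D. Trf, for example, stood at 28.7 CPM in D and 41.6 CPM in E. The part of liver RNA in the levels of the alpha-class genes was not tested. Of the kidney and intestine markers only Cdh16 (2.28 and 1.51 CPM) had values, of the lung markers only Cyp2f2 (4.91 and 5.22 CPM), of the adipocyte markers only Fabp4 (1056 and 1013 CPM), and no adrenal marker had any.

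Markers of the heart were present throughout. The 8 cardiomyocyte markers, led by Actc1 and Myl2, had sums of 33984 CPM (control) and 28847 CPM (knockout), and limma called 5 of them lower and 0 higher (1 higher at an unadjusted p below 0.05), where 12.9% of all genes were called lower. Fibroblast markers (Dcn and Col3a1 the highest) summed to 505 and 441 CPM, endothelial markers (Cdh5 and Kdr) to 174 and 185 CPM, and leukocyte markers (Lyz2 and Csf1r) to 154 and 111 CPM. Over these 3 lists limma called 0 genes higher in the knockout (0 also at an unadjusted p below 0.05), and Dcn and Lyz2 lower. The shares over all genes were 13.3% higher and 12.9% lower. The part of the lower cardiomyocyte markers in these comparisons was not tested. Which cells of the heart carried the alpha-class transcripts was not measured. The Y-linked Ddx3y stood at 31.2 and 34.7 CPM in the 2 groups, and Xist had no values. Of the genes that can differ with strain or transgene, 3 more are given, chosen after their values were seen. Nnt, the transhydrogenase that is deleted in some C57BL/6 substrains, had a wide SD in the control (91.4 ± 30.6 CPM, against 72.6 ± 3.47 CPM) and did not pass. Wdfy1 fell from 15.9 CPM ± 2.27 (SD, n = 3) to 5.36 CPM ± 1.14 (SD, n = 2), with a limma adjusted p of 0.00033. A1cf, at the known insertion site of the Myh6 MerCreMer transgene, had 0, 1 and 0 reads in the control libraries and 16 and 12 in the knockout libraries (limma adjusted p = 0.0017). Strain background, the transgene and the loss of Immt cannot be told apart.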

How the data were processed

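Heart RNA was captured by the authors with an oligo-dT primer holding a molecular identifier and read from its 3′ end, with 3 control and 2 knockout libraries that the labels title separately. The study treated the individual mouse as its experimental unit. The p-values rest on the spread between these samples, moderated toward a trend over all genes. The submitters' processing notes name edgeR 4.0.16, featureCounts in Subread 2.1.1, SAMtools 1.22.1, STAR 2.7.11 and the build GRCm39, with no roles given, and the setting by which reads were divided is not given in the sources used here. The deposited table gives, per gene and group, a mean signal in CPM on normalized library sizes and its SD, also in CPM. There were 0 columns of single samples. The authors' columns of fold change, F statistic, average level and p-value hold their own comparison and were not used.

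Members, lists and markers were chosen with earlier results of these data known. Named genes were the members, Immt, Gsta5, up to 4 called members per direction and 2 uncalled members with the highest mean in each of the 5 lists, the 5 nearest genes of each member, neighbours within 200 kb, and the 2 highest markers of each list, some of which are not reported here. Where several entries shared a symbol, the one with the highest mean was taken.

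All 15116 genes were tested in R 4.3.3 with the moderated test of limma 3.58.1, two-sided, on log2(mean + 0.5 CPM), with SDs carried to that scale, a mean-variance trend and Benjamini-Hochberg adjustment over all genes. Folds of low genes are understated on this scale. The script was tested on simulated data. A count model was not fitted here. Reads were worked back from means and SDs with a relative tolerance of 6e-07 and, for split reads, steps of 1/12 read to 2 decimals. Up to 4 CPM, 27.4% of control and 23.4% of knockout genes gave split reads. Transcripts came from GENCODE M21 and promoters from RefSeq, aligned with Biopython 1.88. Alternatives were pseudocounts of 0.1 and 1 CPM, columns scaled to equal totals, a minimum mean of 5 CPM, no trend, summed entries, the knockout value nearer to the control, and, added after seeing the data, each library left out. For calls with the nearer value, the control mean was used in its place where it lay between the knockout values. The knockout SD was not used there.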

Additional observations from a re-analysis of the deposited data

How the results depend on the processing

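No paired analysis was possible because the table holds group means and SDs, and the libraries worked back from them cannot be tied to the replicate numbers. Over all 15116 genes, scaling columns to equal totals gave 3067 higher and 1419 lower calls against 2014 and 1944, or 68.4% against 50.9% higher, with a shift of the median log2 difference by 0.11. A minimum mean of 5 CPM gave 1277 lower calls, and taking the knockout value nearer to the control, a bound that uses 1 value per gene, gave 714 higher and 604 lower. For other glutathione transferases, equal totals gave 5 higher and 3 lower, no trend gave 3 lower, and the nearer value gave 1 and 1. For glutathione synthesis and turnover, lower calls were 3 with equal totals, 3 with the minimum mean and 2 with the nearer value. The nearer value gave 8 higher calls for NRF2 targets, and 1 higher and 2 lower for aldehyde removal. The remaining 69 of 84 alternatives over counts stayed within 1.5 times.

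The log2 ratios of the members on the scale of log2(mean + 0.5 CPM) kept their sign under every alternative run. They ranged from 4.77 to 5.44 for Gsta1 (main value 5.10), 4.84 to 5.66 for Gsta13 (5.23), 4.09 to 6.06 for Gsta2 (4.84), −0.43 to −0.23 for Gsta3 (−0.35) and 0.10 to 0.34 for Gsta4 (0.22). The ends for Gsta2, 6.06 and 4.09, came with pseudocounts of 0.1 and 1 CPM. For the summed Gsta1, Gsta2 and Gsta13 the range was 5.21 to 5.84 (5.50).

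Among the 10708 genes with reads worked back in all 5 libraries, limma on the libraries called 956 higher and 1183 lower. Leaving out 1 library gave 309 to 1305 higher and 422 to 1654 lower, and the highest counts came without control library C. Of the 15 NRF2 targets among these genes, 5 were called higher, and 4 to 6 with 1 library left out, while 0 were called lower, or 2 without control library C. With 2 knockout libraries, a call rests on few values, and control levels of Gsta2 and Gsta5 rest on under 8 reads.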
